A study of Mus musculus with 8 samples.

Results

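The 37 nuclear genes for subunits of respiratory complex I were followed in mouse ovarian follicles, as the genes of the FPKM table whose symbols are Ndufa, Ndufb, Ndufc, Ndufs or Ndufv with a number, or Ndufab1. They are 37 of 55157 genes in the table. Assembly factors (Ndufaf symbols) and symbols with a suffix were left out by this rule. The table holds no gene under the symbol Ndufb1, a membrane arm subunit, so the 37 are not every nuclear subunit. All 37 members passed the filter of a mean of 1 FPKM (a fragment count divided by exon length and library size) that left 14738 genes to test. RNA came from follicles of types 7 to 8, a morphological stage, isolated from ovaries of Kunming mice, an outbred stock, on postnatal day 21. All 8 samples had received pregnant mare serum gonadotropin (PMSG, a hormone with follicle-stimulating activity) 24 hours earlier, with normal saline in the 4 control samples and with melatonin in the 4 melatonin samples. There was no group without PMSG, so levels were compared between gonadotropin-primed follicles and a response to the hormone itself was not measured. Replicates are numbered in the labels with no word on separate animals or pooling, and the p-values below therefore reflect only how far these libraries spread, technical variation included.

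Complex I (NADH:ubiquinone oxidoreductase) is the entry point for electrons from NADH into the mitochondrial respiratory chain, and it pumps protons across the inner membrane as the electrons pass to ubiquinone. It is L-shaped, with a matrix arm that carries the flavin and iron-sulfur clusters and a membrane arm that holds the proton pumps. The core of the membrane arm is encoded by mitochondrial DNA, the core of the matrix arm by nuclear genes, and the accessory subunits around both by nuclear genes. Growing follicles contain granulosa cells, theca cells and an oocyte, a cell rich in mitochondria. These are bulk samples, in which fewer cells of a type and less RNA per cell cannot be told apart.

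Library totals implied by the FPKM steps ran from 17451111 to 22034312 fragments for control and from 18553187 to 23649205 for melatonin. GC content and length moved with the groups. Across genes, a library's deviation had a Spearman correlation with GC content between -0.0235 and 0.261 for control and between -0.182 and -0.121 for melatonin, and that with exon length was -0.0974 to -0.0532 and 0.0242 to 0.111 (a description across genes, which are not replicates). The members were shorter than the tested genes in general, with a median length behind the FPKM of 1569 against 3553 bases, and had a median GC content of 51.3% against 49.4%. Their part in the results was not tested beyond the corrected values given below. Granulosa markers were lower on average in all but 1 case. Of 8 granulosa markers 7 had a negative log2 fold change and 3 had an unadjusted p under 0.05, 0 an adjusted one, and in 2 the groups lay apart. Nr5a2 was the positive one (170.5 ± 23.5 and 181 ± 12.9 FPKM, SD, n = 4 each). The summed FPKM ran from 7045 to 8844 with saline and from 6038 to 6700 with melatonin, with no overlap. Inha made up 82.6% to 85.6% of a library's sum, and without it the sums were 1162 to 1511 and 943 to 1109. Of 10 oocyte markers 8 were negative and 0 had an unadjusted p under 0.05, with sums of 308 to 486 and 295 to 387. Of 7 theca markers tested 6 were negative and 3 had an unadjusted p under 0.05, with sums over 8 markers of 973 to 1323 and 607 to 1172. Hsd3b1 made up most of these sums (909 to 1264 and 574 to 1138 FPKM). The 3 were Cyp17a1, Cyp11a1 and Lhcgr, each with overlapping groups, and Ptch1 was the positive marker. Cyp17a1 had 19.8 ± 3.24 and 8.84 ± 7.96 FPKM and Cyp11a1 had 18.6 ± 4.67 and 10.2 ± 4.90 (SD, n = 4 each). Lhcgr had 3.66 ± 1.04 and 2.19 ± 1.32 FPKM (SD, n = 4 each). Sums overlapped between the groups for oocyte, theca, stroma (42.5 to 89.8 and 27.2 to 52.8), endothelium (6.38 to 9.71 and 5.08 to 7.58), leukocytes (24.0 to 115 and 20.7 to 36.7), erythrocytes (66.5 to 1545 and 125 to 479) and smooth muscle (33.9 to 57.7 and 35.4 to 56.9). Beside the marker counts, 52.5% of all tested genes were negative and 9.74% were lower at an unadjusted p under 0.05. In 5.94% every melatonin value lay below every control value. No marker of any of the lists was at 0 in all libraries, and the part of these cell types in the results was not tested.

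Complex I subunit transcripts were lower on average in melatonin than in control follicles in 36 of 37 genes, and no single gene passed the threshold. A negative log2 fold change was found in 97.3% of the members and in 52.5% of all tested genes. The members were measured in the same 8 libraries, so their signs are not independent observations. The means differed by between -21.2% (Ndufs8) and 8.97% (Ndufa12), with a median of -10.1%. The median log2 fold change on log2(FPKM + 1) was -0.15 over the members and -0.01 over all tested genes. With limma and Benjamini-Hochberg adjustment over all 14738 genes, 0 members had an adjusted p under 0.05, as had 0% of all tested genes, and the smallest adjusted p was 0.120. At an unadjusted p under 0.05, 21 members were lower and 0 higher, where 9.74% of all tested genes were lower. limma-voom on the recovered fragments also called 0 members, with 15 lower at an unadjusted p under 0.05, where 7.4% of all tested genes were lower. In 11 members every melatonin value lay below every control value, as in 5.94% of all tested genes, and in 26 the groups overlapped. Genes with higher levels leaned lower in general: at a mean level of 10 FPKM or more, 17.3% of genes were lower at an unadjusted p under 0.05, as were 20 of the 34 members at that level. Of all genes at that level 63.3% had a negative log2 fold change, and in 10.8% every melatonin value lay below every control value.

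**Figure D1:**
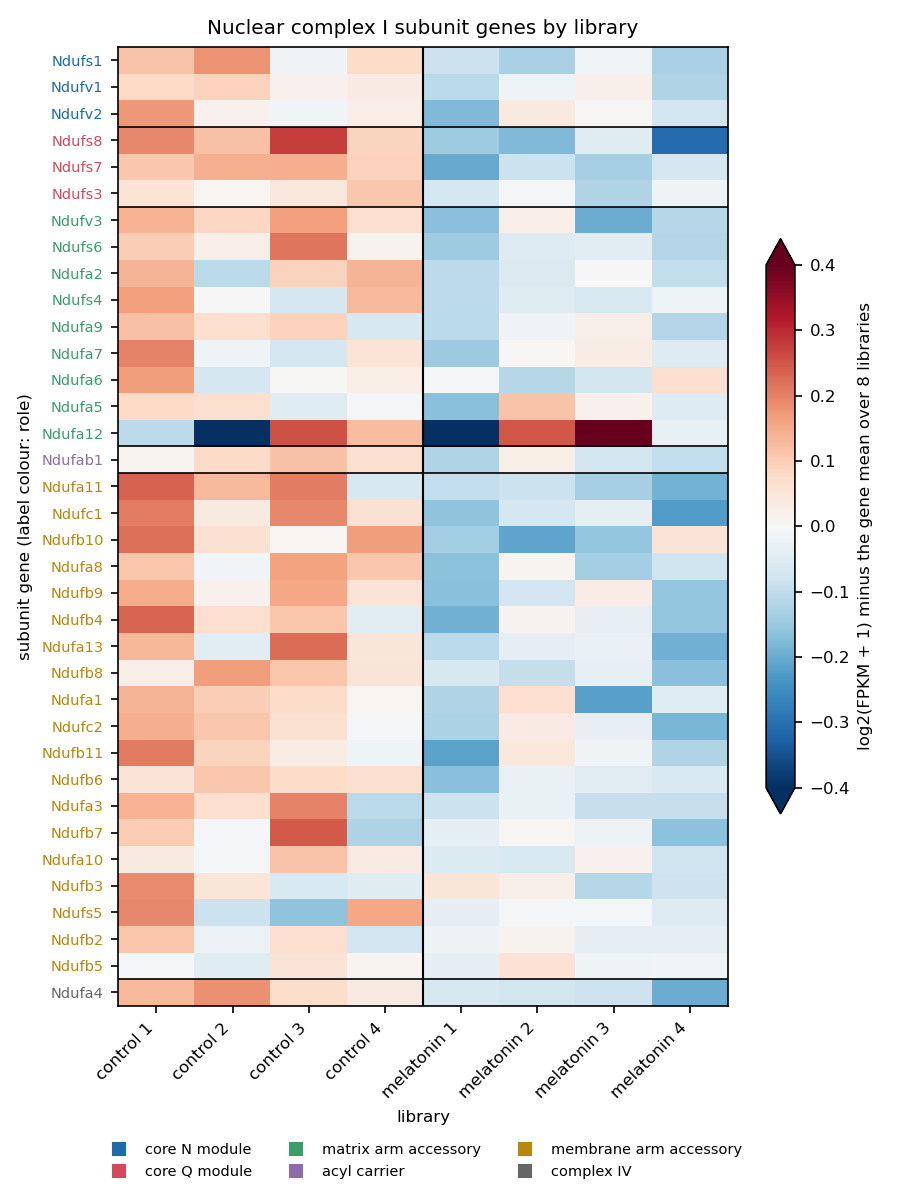
Colour shows log2(FPKM + 1) of 36 of the 37 genes in each library minus the gene's mean over the 8 libraries, with genes grouped by role (label colours) and the groups parted by a vertical line; colours are capped at 0.4 in size. Control libraries are mostly red and melatonin libraries mostly blue, with melatonin replicates 1 and 4 below the gene's mean in 36 and 35 of all 37 members, and Ndufa12 follows neither group.

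Summed over the 37 genes, FPKM was 1731, 1616, 1658 and 1614 in control replicates 1 to 4 and 1439.5, 1549, 1521 and 1468.5 in melatonin replicates 1 to 4. The 4 melatonin sums lay below the 4 control sums. The means were 1655 ± 54.6 and 1494 ± 49.6 FPKM (SD, n = 4 each). The summed FPKM of all genes was also lower in each melatonin library (278096 to 284603) than in each control library (287731 to 302290). As a share of all FPKM of a library, the members made up 0.560% to 0.573% in control and 0.518% to 0.545% in melatonin. The libraries of a group differed among themselves. Among control libraries, replicate 1 was the highest in 16 members and replicate 3 in 14. Among melatonin libraries, replicate 1 was the lowest in 16 and replicate 4 in 13, and over all 8 libraries these were the lowest in 14 and 11 members.

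Ndufs7, Ndufs8 and Ndufs3 are core subunits of the Q module, which passes electrons through iron-sulfur clusters to ubiquinone. These 3 had an unadjusted p under 0.05, where 9.74% of all tested genes were lower. In these 3 every melatonin value lay below every control value, as in 5.94% of all tested genes. Ndufs7 (chromosome 10, 80249121 to 80256794, mm10), which holds the last iron-sulfur cluster before ubiquinone, had 33.9, 34.8, 34.9 and 33.6 FPKM in control replicates 1 to 4 and 27.2, 29.5, 28.5 and 29.96 in melatonin replicates 1 to 4. The 4 control libraries lay close together, and the highest melatonin value was below the lowest of them. In limma its log2 fold change was -0.24 ± 0.044 (SE), with an unadjusted p of 0.000432 and an adjusted p of 0.120 (n = 4 each). Ndufs8 (chromosome 19, 3908863 to 3912774), a neighbouring iron-sulfur subunit, had 56.3, 53.4, 59.8 and 52.3 FPKM in control and 44.4, 43.3, 47.5 and 39.5 in melatonin. Control replicate 3 was the highest and melatonin replicate 4 the lowest, and the groups lay apart. Its log2 fold change of -0.34 ± 0.067 was the largest in size among the members (limma adjusted p = 0.120, n = 4 each).

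Ndufs3 (chromosome 2, 90894634 to 90904827), a scaffold of the Q module, had 34.9, 33.8, 34.7 and 36.3 FPKM in control and 32.0, 33.5, 30.9 and 33.2 in melatonin. The groups lay apart by a narrow margin, between control replicate 2 and melatonin replicate 2. This gave a log2 fold change of -0.11 ± 0.044 (limma adjusted p = 0.243, n = 4 each), and -0.04 after correction for GC content and exon length. The processed pseudogene Gm12251 is 98.6% identical to 75.7% of the Ndufs3 transcript and had a mean of 2.24 FPKM, so reads of the pair may be divided between them.

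The 3 core subunits of the N module, which takes up NADH, were also lower on average, with overlapping groups. Ndufs1 (chromosome 1, 63143596 to 63176833), the largest subunit and an iron-sulfur protein, had 11.1, 11.6, 10.01 and 10.7 FPKM in control and 9.49, 9.18, 10.05 and 9.18 in melatonin. Only control replicate 3 and melatonin replicate 3 crossed. Its log2 fold change was -0.18 ± 0.056 (limma adjusted p = 0.169, n = 4 each). Ndufv1 (chromosome 19, 4007384 to 4012806), which binds NADH and the flavin, had 41.4, 41.7, 39.6 and 40.1 FPKM in control and 36.2, 38.6, 39.7 and 35.9 in melatonin. Melatonin replicate 3 lay within the control range. limma gave a log2 fold change of -0.11 ± 0.047 (limma adjusted p = 0.251, n = 4 each), and -0.04 after the GC content and length correction. Ndufv2 (chromosome 17, 66078638 to 66101559), an iron-sulfur subunit beside Ndufv1, had 34.0, 30.4, 29.8 and 30.7 FPKM in control and 26.5, 30.9, 30.2 and 28.5 in melatonin. Melatonin replicates 2 and 3 lay inside the control range. Its log2 fold change was -0.10 ± 0.063 (limma unadjusted p = 0.140 and adjusted p = 0.407, n = 4 each).

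**Figure D2:**
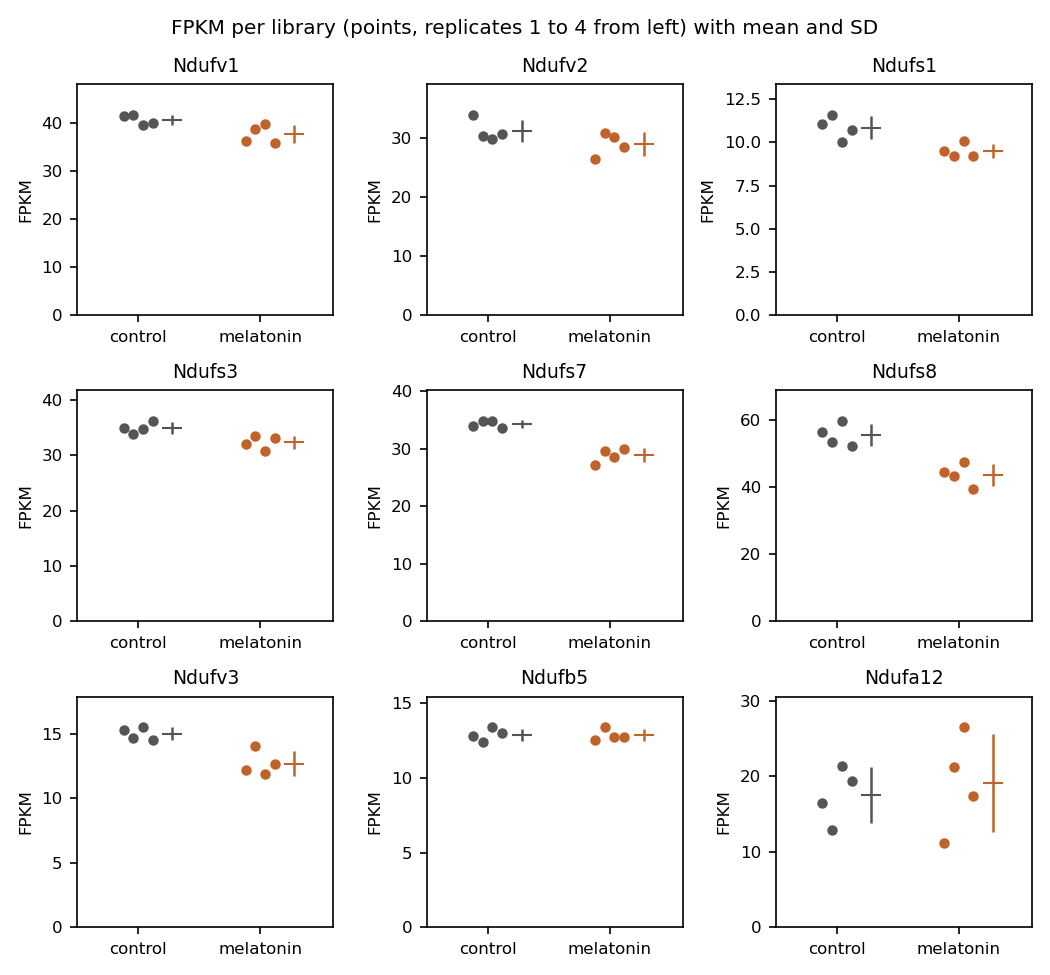
FPKM of 6 core genes and of Ndufv3, Ndufb5 and Ndufa12 in each library (points, replicates 1 to 4 from left to right) with the mean and SD of each group of 4 beside them; each vertical axis starts at 0. Points of the groups lie apart for Ndufs3, Ndufs7, Ndufs8 and Ndufv3, overlap for Ndufb5, and spread from 11.2 to 26.6 FPKM for Ndufa12.

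Accessory subunits surround the core and are needed for its assembly and stability. Of the 9 of the matrix arm 8 had a negative log2 fold change, 2 were lower at an unadjusted p under 0.05 (9.74% of all tested genes were) and in those 2 the groups lay apart (5.94% of all tested genes did). Ndufv3, an accessory subunit at the NADH end, had 15.3, 14.7, 15.6 and 14.5 FPKM in control and 12.2, 14.1, 11.9 and 12.7 in melatonin. All melatonin values were under the control values, melatonin replicate 2 being the nearest. On the log2 scale the difference was -0.23 ± 0.059 (limma adjusted p = 0.145, n = 4 each). Ndufs6, a zinc-binding subunit, had 45.8 ± 3.03 FPKM with saline against 40.4 ± 1.38 with melatonin (SD, n = 4 each). Its processed pseudogene copy Ndufs6b is 96.6% identical to 61.3% of the transcript and had a mean of 2.07 FPKM. Ndufs4, named here with Ndufs6 after its values were seen, is a subunit whose loss in mice gives a model of Leigh syndrome. It had 41.7 ± 3.17 and 38.3 ± 1.01 FPKM with overlapping groups (limma adjusted p = 0.328, n = 4 each).

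Of 20 membrane arm accessory genes looked for, 19 were in the table, all with a negative log2 fold change (median -0.15). Of these 11 were lower at an unadjusted p under 0.05 and 4 had groups that lay apart, beside the same 9.74% and 5.94% of all tested genes. Ndufc1, a small membrane subunit, had 27.5, 24.3, 27.2 and 24.8 FPKM in control and 21.1, 22.6, 23.1 and 20.2 in melatonin. The groups lay apart, melatonin replicate 3 being the nearest to the control values. This gave a log2 fold change of -0.25 ± 0.062 (limma adjusted p = 0.142, n = 4 each). Ndufa11, a membrane subunit, had 27.2, 25.2, 26.6 and 21.9 FPKM in control and 21.4, 21.6, 20.8 and 19.9996 in melatonin. Control replicate 4 was close to the melatonin values, and the groups did not overlap. Its log2 fold change was -0.25 ± 0.069 (limma adjusted p = 0.147, n = 4 each). Ndufb8 had 20.9 ± 0.98 against 18.4 ± 0.77 FPKM and Ndufb6 had 50.5 ± 0.85 against 45.5 ± 2.0 FPKM (SD, n = 4 each), both with groups that lay apart and adjusted p of 0.148 and 0.156 (limma). Both belong to the distal membrane arm.

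Ndufab1, the mitochondrial acyl carrier protein, which also serves fatty acid synthesis, had 8.50, 8.95, 9.24 and 8.85 FPKM in control and 7.68, 8.59, 7.96 and 7.81 in melatonin. Melatonin replicate 2 exceeded control replicate 1, so the groups overlapped. limma gave a log2 fold change of -0.13 ± 0.051 (limma adjusted p = 0.218, n = 4 each). Ndufa4, named as a complex I subunit but found in complex IV by later structural work, had 66.8, 69.4, 64.0 and 62.6 FPKM in control and 58.2, 57.9, 57.6 and 53.1 in melatonin. Its groups lay apart, melatonin replicate 4 being the lowest. Its log2 fold change was -0.21 ± 0.051 (limma adjusted p = 0.138, n = 4 each), and it is counted among the 21 genes lower at an unadjusted p under 0.05.

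**Figure D3:**
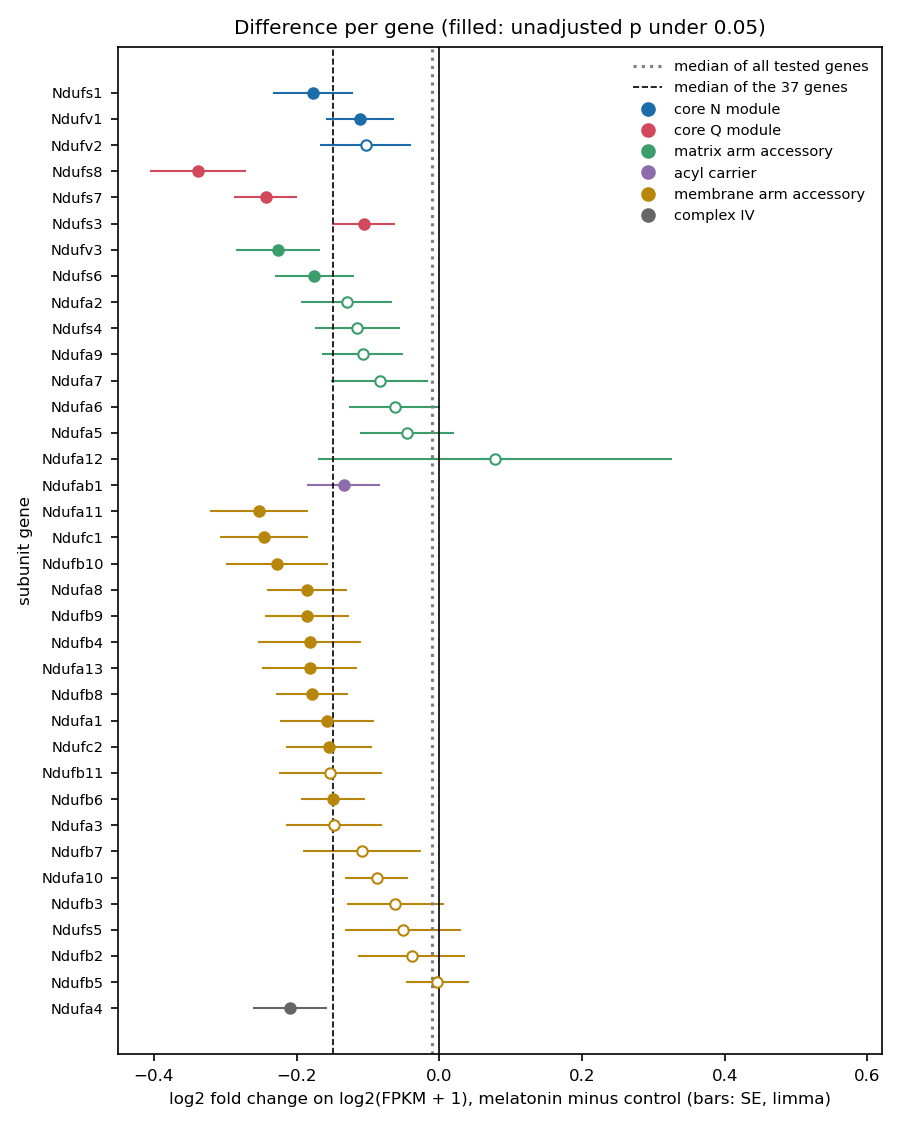
Log2 fold change on log2(FPKM + 1), melatonin minus control, with its limma SE for 36 of the 37 genes, ordered within roles (colours); filled points have an unadjusted p under 0.05. All points but Ndufa12 lie at or below 0, the dashed line marks the median of -0.15 over all 37 and the dotted line the median of -0.01 over all tested genes.

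At the other end, 9 members had a log2 fold change under 0.1 in size and an unadjusted p of 0.05 or more. Ndufb5, of the distal membrane arm, had 12.8, 12.4, 13.4 and 12.96 FPKM in control and 12.5, 13.4, 12.7 and 12.7 in melatonin. The groups covered nearly the same range, and the log2 fold change was -0.003 ± 0.044 (limma adjusted p = 0.981, n = 4 each). Its SE was among the smallest of the members, which ranged from 0.044 to 0.248. Ndufb2 had 1.96 ± 0.17 and 1.88 ± 0.048 FPKM, with an adjusted p of 0.807 (limma, n = 4 each).

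Ndufa12, a small accessory subunit of the matrix arm near the N module, was the single member with a positive value and the most variable one. It had 16.4, 12.9, 21.3 and 19.4 FPKM in control and 11.2, 21.2, 26.6 and 17.4 in melatonin. Neither group was apart from the other, and melatonin replicate 1 was the lowest and melatonin replicate 3 the highest of the 8. Its coefficient of variation was 21.0% in control and 34.1% in melatonin, against medians over the members of 6.06% and 5.23%. The highest over the lowest of the 8 libraries was 2.38 times for Ndufa12 and 1.51 times for Ndufs8, the next member. On the log2 scale the difference was 0.08 ± 0.248 (limma adjusted p = 0.887, n = 4 each), and it was -0.05 without control replicate 2 and -0.10 without melatonin replicate 3. It had between 353 and 774 recovered fragments in a library.

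Promoter windows are printed for 5 members, so that lower genes and a gene whose group means nearly coincide can be read side by side. Promoters of respiratory chain genes are known to hold sites for NRF1, for ETS factors such as GABPA, and for YY1, and many lack a TATA box. RefSeq windows (GRCm38.p6, the assembly of mm10) from 250 bases before to 50 bases after the annotated start, so that base 251 is the start, were found for 33 of the 37 members. Capitals mark exact matches on either strand to the NRF1 consensus with its middle base left free, CCGGAAG (ETS) or AANATGGCG (YY1), where N is any base. Ndufs7 (chr10:80249199-80249498, plus strand) and Ndufs8 (chr19:3912725-3913024, minus strand) had the smallest p-values. Ndufs6 (chr13:73328433-73328732, minus strand) holds both an NRF1 and a YY1 match, Ndufa11 (chr17:56717512-56717811, plus strand) holds an NRF1 match, and Ndufb5 (chr3:32736813-32737112, plus strand) had group means that nearly coincided and holds no match. The lower genes printed here each hold a match, but not all lower members do. Ndufa4 and Ndufv3 had smaller limma p-values than Ndufa11 and Ndufs6, hold no match and are not printed. The printed windows therefore do not stand for all members, and whether matches go with lower genes was not tested.
Ndufs7: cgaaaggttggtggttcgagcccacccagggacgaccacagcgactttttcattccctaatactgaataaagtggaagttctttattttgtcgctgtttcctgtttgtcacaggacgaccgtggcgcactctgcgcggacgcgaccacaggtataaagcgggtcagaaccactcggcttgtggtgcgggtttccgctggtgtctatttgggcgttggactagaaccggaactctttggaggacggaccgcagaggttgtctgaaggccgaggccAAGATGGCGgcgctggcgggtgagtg
Ndufs8: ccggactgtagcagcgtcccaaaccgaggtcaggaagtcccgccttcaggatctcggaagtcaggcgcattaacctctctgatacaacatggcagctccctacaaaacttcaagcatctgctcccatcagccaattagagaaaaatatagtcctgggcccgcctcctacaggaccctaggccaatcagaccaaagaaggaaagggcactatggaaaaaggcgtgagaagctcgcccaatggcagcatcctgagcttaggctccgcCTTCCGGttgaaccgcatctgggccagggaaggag
Ndufs6: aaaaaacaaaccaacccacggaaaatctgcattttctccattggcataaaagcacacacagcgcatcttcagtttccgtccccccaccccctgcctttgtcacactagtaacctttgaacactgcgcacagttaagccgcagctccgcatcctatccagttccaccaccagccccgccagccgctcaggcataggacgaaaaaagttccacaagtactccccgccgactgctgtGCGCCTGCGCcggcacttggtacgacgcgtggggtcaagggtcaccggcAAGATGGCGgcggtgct
Ndufa11: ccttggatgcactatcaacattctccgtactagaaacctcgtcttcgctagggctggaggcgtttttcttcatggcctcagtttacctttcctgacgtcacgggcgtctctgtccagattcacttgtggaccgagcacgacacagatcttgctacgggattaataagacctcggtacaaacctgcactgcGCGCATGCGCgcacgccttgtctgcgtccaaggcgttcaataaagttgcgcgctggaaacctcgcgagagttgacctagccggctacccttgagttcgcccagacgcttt
Ndufb5: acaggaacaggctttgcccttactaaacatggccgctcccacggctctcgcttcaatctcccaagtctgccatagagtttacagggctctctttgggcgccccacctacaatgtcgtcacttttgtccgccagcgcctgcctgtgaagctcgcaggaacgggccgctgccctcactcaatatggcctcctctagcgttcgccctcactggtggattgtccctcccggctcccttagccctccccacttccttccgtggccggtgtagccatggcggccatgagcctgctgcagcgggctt
The YY1 match in Ndufs7 begins at base 275 and the ETS match in Ndufs8, read on the other strand, at base 266, both after the start. The NRF1 letters were found in 7 of 33 members (21.2%) and in 4.78% of 27025 windows of all genes. The YY1 letters were found in 6 of 33 (18.2%) against 2.51%, and in 5 of the 6 they began after the start site. The ETS letters were found in 4 of 33 (12.1%) against 9.12%, those of an SP1 box (GGGCGG) in 15 (45.5%) against 35.9%, and those of a CCAAT box in 10 (30.3%) against 37.9%. A match to TNAAGGTCA, the letters of an estrogen-related receptor site, was found in 1 member, Ndufb4, and in 1.26% of all windows. In 17 members none of the NRF1, ETS and YY1 letters was found, which says only that these letters are not in the window. Matches were found in members that were lower and in members that were not: NRF1 letters stand in Ndufa11 and Ndufa8, and also in Ndufa5, Ndufa6 and Ndufs5, whose log2 fold changes were -0.04, -0.06 and -0.05 (limma adjusted p of 0.736, 0.613 and 0.760, n = 4 each). Lower members also lacked them: no NRF1, ETS or YY1 letters stand in Ndufb8, Ndufv3 or Ndufa4. These genes were named after their values were seen.

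Transcript levels differed widely among subunits that are built into the complex in fixed numbers. By deposited FPKM, Ndufc2 (101 FPKM, mean of 8 libraries), Ndufa1 (98.7) and Ndufb11 (90.6, with a processed pseudogene copy, Gm6444, at 0.278) were the highest. The ranges of the 4 control values of Ndufc2 (112, 109, 106 and 101 FPKM) and of Ndufa1 (108, 105, 104 and 98.9 FPKM) overlapped. Within each control library Ndufc2 was the higher, and in melatonin replicate 4 it was the lower (88.9 and 95.2 FPKM). Their order was not tested. Ndufb2 (1.92 FPKM), Ndufab1 (8.45), Ndufb7 (9.59) and Ndufs1 (10.2) were the lowest, and the highest level was 52.8 times the lowest. The length that turned FPKM into whole fragments was, for most genes, that of all exons annotated for any transcript of the gene. That length was 4522 bases for Ndufb7 but 623 bases for its principal coding transcript in GENCODE M21. Where several transcripts of a gene tied as principal, the longest was taken. In 9 members the ratio of these lengths was over 2. Per kilobase of the principal transcript, the same fragments gave a level on the FPKM scale of 69.6 for Ndufb7, 59.5 for Ndufb5, 90.8 for Ndufb8 and 30.9 for Ndufs1, in place of 9.59, 12.9, 19.6 and 10.2 FPKM. On that scale Ndufa6 (161), Ndufa4 (139) and Ndufa7 (130) were the highest. Ndufb2 stayed the lowest at 2.47, with a mean of 225 recovered fragments and a principal transcript of 4371 bases. That was the longest among the members (median 908 bases), so the value of 2.47 depends on this choice of length. A shorter one was not tried. Its mean of recovered fragments was also the lowest of the members, whose median was 1243. Each gene is divided by the same length in every library, but the length still bears on the group comparison through the added 1, the filter and the length correction.

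**Figure D4:**
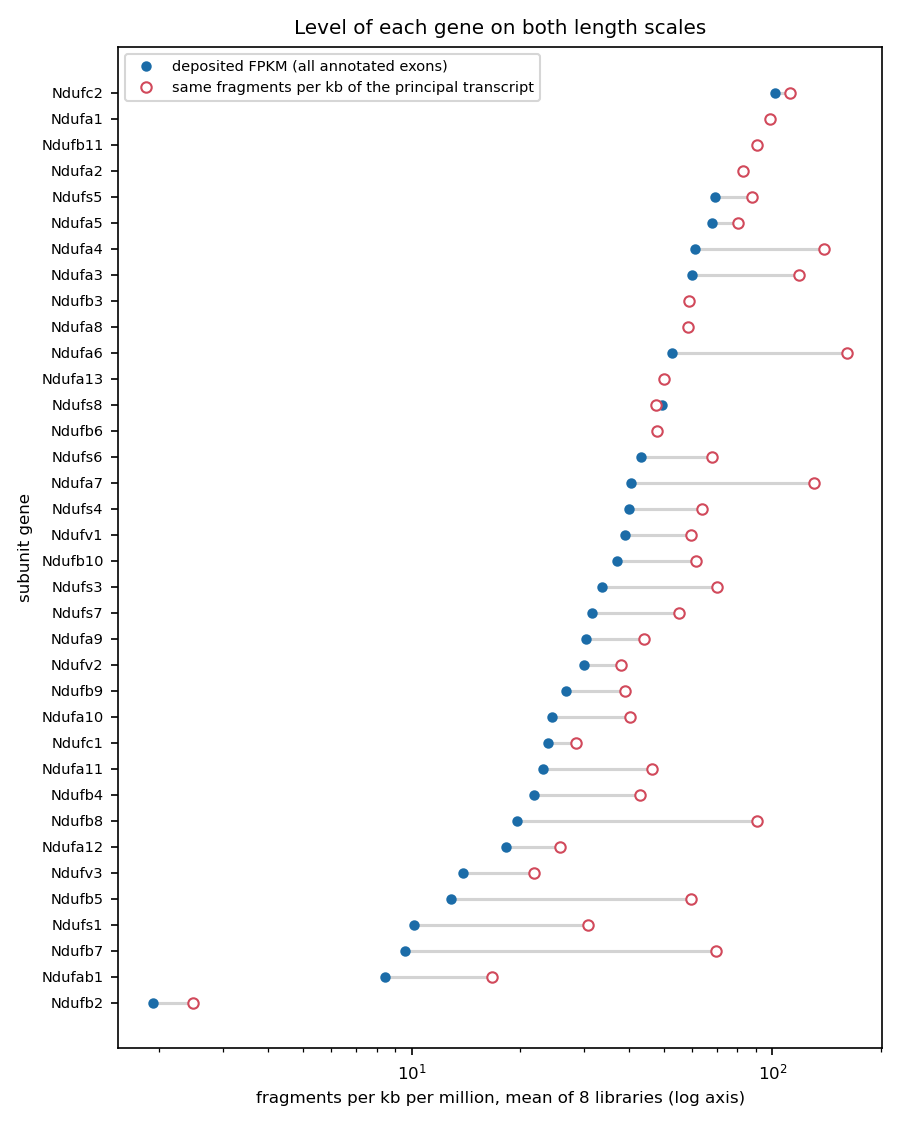
Mean level over the 8 libraries of 36 of the 37 genes on a log axis, as deposited FPKM (filled) and as the same recovered fragments scaled by the principal coding transcript's length (open). Ndufb7 moves from 9.59 to 69.6 and Ndufb5 from 12.9 to 59.5, while Ndufb2, with a principal transcript taken as 4371 bases, is the lowest on both scales.

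The 7 subunits encoded by mitochondrial DNA, the proton-pumping core of the membrane arm, had a negative log2 fold change in 7 of 7 (median -0.10), and 0 had an unadjusted p under 0.05. mt-Nd1 had 2995 ± 481 and 2874 ± 244 FPKM, mt-Nd2 had 1704 ± 239 and 1619 ± 144, and mt-Nd4 had 1402 ± 129 and 1310.4 ± 135 (SD, n = 4 each). mt-Nd5 had 989.6 ± 292 and 877 ± 121, mt-Nd6 had 730.0 ± 232 and 633 ± 77.1, and mt-Nd3 had 13.9 ± 3.34 and 13.1 ± 3.35. mt-Nd4l, which overlaps mt-Nd4 and can share its reads, had 54.1 ± 23.6 and 33.8 ± 6.82 FPKM (limma adjusted p = 0.265, n = 4 each). The SE of their log2 fold changes was 0.108 to 0.266, against a median of 0.062 over the nuclear members. Of 19 assembly factors tested, which build the complex but are not part of it, 14 were negative and 5 positive (median -0.04), and 4 were lower at an unadjusted p under 0.05. Ndufaf8 had 13.4 ± 0.13 and 11.7 ± 0.46 FPKM and Timmdc1 had 18.4 ± 0.68 and 16.5 ± 1.03 (SD, n = 4 each; limma adjusted p of 0.138 and 0.217). Both lists are to be read beside the 52.5% of all tested genes that were negative and the 9.74% that were lower. Whether these lists differ from the nuclear subunits was not tested.

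Neighbouring parts of the chain gave the following counts, to be read beside the 9.74% of all tested genes that were lower and the 52.5% that were negative. All complex II and III genes here averaged 10 FPKM or more, a level at which 17.3% of genes were lower and 63.3% negative. In complex II 4 of 4 subunit genes were negative (median -0.15) and 3 were lower at an unadjusted p under 0.05, led by Sdhb with 31.2 ± 1.06 and 26.7 ± 2.25 FPKM and Sdhd with 60.7 ± 4.18 and 54.2 ± 0.94 (SD, n = 4 each). In complex III 9 of 9 nuclear genes were negative (median -0.19) and 9 were lower at an unadjusted p under 0.05, led by Uqcrfs1 with 58.2 ± 1.35 and 50.8 ± 2.54 FPKM and Uqcrq with 52.8 ± 1.45 and 42.5 ± 4.84 (SD, n = 4 each). Of 4 tested enzymes that feed electrons to ubiquinone by other routes, 3 were negative and 2 were lower at an unadjusted p under 0.05, Dhodh with 4.94 ± 0.32 and 4.33 ± 0.23 FPKM and Gpd2 with 6.02 ± 0.25 and 5.09 ± 0.73.

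Of 8 tested regulators of respiratory chain genes 5 were negative and 3 positive (median -0.01), and 1 was lower at an unadjusted p under 0.05. Of all tested genes 52.5% were negative and 9.74% were lower at that level. Nrf1 had 4.28 ± 0.11 and 4.31 ± 0.087 FPKM, Gabpa 12.3 ± 0.94 and 12.3 ± 0.48, Yy1 19.5 ± 0.38 and 19.1 ± 0.83, and Esrra 6.22 ± 0.63 and 6.55 ± 0.46 (SD, n = 4 each), and each difference was smaller than the larger SD. Their log2 fold changes were 0.01, 0.01, -0.03 and 0.07. Tfam, which maintains and transcribes mitochondrial DNA, had 9.78 ± 0.64 and 8.37 ± 0.17 FPKM with groups that lay apart (log2 fold change -0.20, limma adjusted p = 0.147, n = 4 each). The coactivator Ppargc1a did not reach 1 FPKM in any library and was not tested (0.155 ± 0.025 and 0.150 ± 0.059 FPKM, SD, n = 4 each).

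The count of lower members varied with the fit. After quantile normalization 10 of 37 were lower at an unadjusted p under 0.05 (8.01% of all tested genes), the median log2 fold change was -0.08 and the groups lay apart in 7 members, where 4.71% of all tested genes did. After correction for GC content and exon length 34 were negative (52.1% of all tested genes) and 15 were lower (9.09%), with a median of -0.12. Over the 22 fits in all, 7 members were lower at an unadjusted p under 0.05 in each, namely Ndufs7, Ndufs8, Ndufs1, Ndufc1, Ndufv3, Ndufa11 and Ndufb8, where 3.44% of all tested genes were so in every fit that held them. Another 10 were so in 0 fits, where 78.2% of all tested genes were, namely Ndufa5, Ndufa6, Ndufa7, Ndufa10, Ndufa12, Ndufb2, Ndufb3, Ndufb5, Ndufb7 and Ndufs5. Among the 5666 genes held by all fits, each at 10 FPKM or more on average, these shares were 6.19% and 66.8%. Both sets were named after their values were seen.

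**Figure D5:**
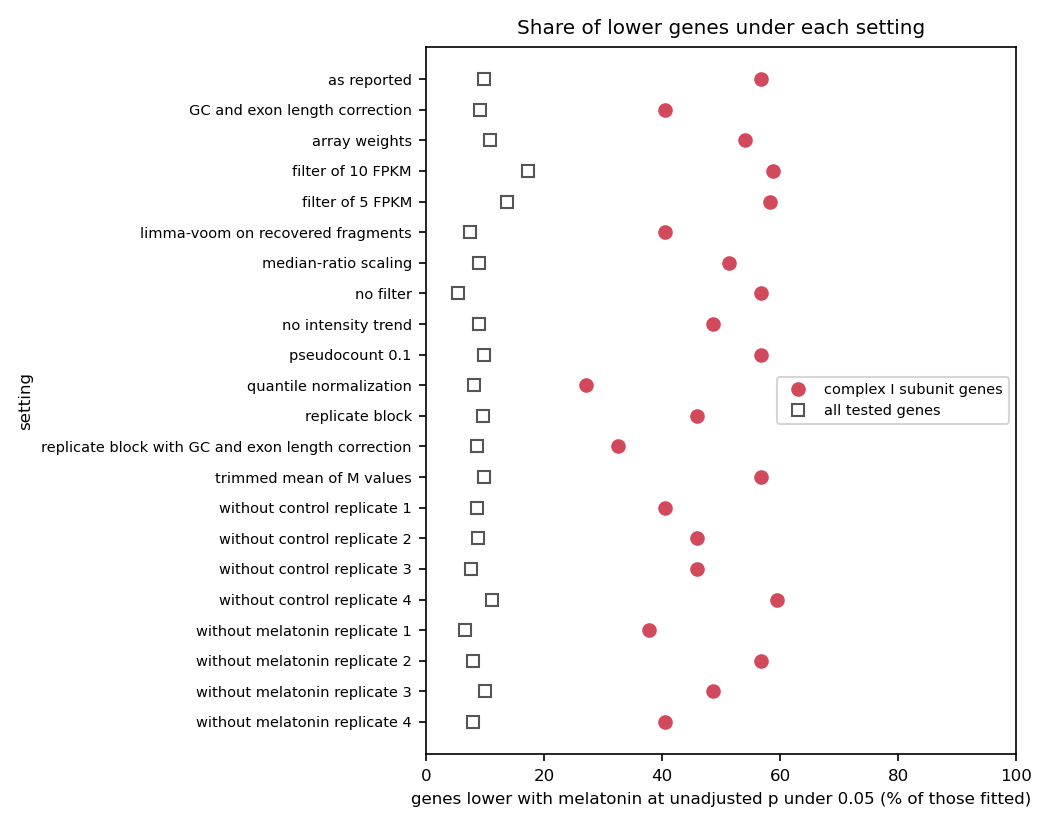
Share of genes lower with melatonin at an unadjusted p under 0.05 among the complex I subunit genes (circles) and among all tested genes (squares) for the reported fit and its 21 alternatives. The members' share runs from 27.0% with quantile normalization to 59.5% without control replicate 4, and the share of all tested genes from 5.37% to 17.3%.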

How the data were processed

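Gene expression was measured by RNA-seq in 8 samples, 4 control and 4 melatonin. The values are FPKM as the authors deposited them, and the submitters' processing notes name the aligner HISAT2 (version 2.0.5) and the build mm10. A counting tool and an annotation were not given in the sources used here. Since deposited FPKM are not counts, tests used log2(FPKM + 1) of genes whose mean over the 8 libraries reached 1 FPKM. limma 3.58.1 (under R 4.3.3, moderated by empirical Bayes, trend on intensity, group only, two-sided) was run on all 14738 genes with Benjamini-Hochberg adjustment. A run on simulated data came before it. The log2 changes simulated were larger in size than that of any member, so that run does not bear on changes as small as theirs. Fold changes on this scale understate the change of low genes. Whole fragments were recovered from the FPKM steps with GENCODE M21 exon lengths for 13760 tested genes and with a length found from the values for the others. The tolerance was 0.05 fragments with annotated lengths and 0.002 in the search for a length. Between 98.7% and 98.9% of low values came out whole.

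The members and the gene lists were chosen with earlier results of these data known. Values are given for the core genes, the 8 members with the smallest p, those with a positive fold change, the 3 with the largest p, the highest and lowest 4 by FPKM, the mitochondrially encoded genes, 2 genes of each further list by p, and 6 regulators; others were named after their values were seen. Values of 1 member are not reported here, though it is included in counts, sums and medians over all 37. Near-identical copies were sought with BLAST+ 2.17.0 (95% identity over 50% of the principal transcript). Promoter windows are RefSeq's, GRCm38.p6. Alternatives changed the filter, pseudocount, scaling, GC content and length correction, variance model, weights, replicate block and unit, or left out each library. Replicate libraries differed by more than sampling noise in all 12 pairs (chi-square per degree of freedom 9.99 to 31.9).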

Additional observations from a re-analysis of the deposited data

Results flagged for a closer look

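Among 74 gene and treatment groups of 4 libraries, 2 had 1 library far from the other 3. Chance gives about 1 in 20 groups, which is more than were found, so the 2 are given only as description. Ndufa3 was highest in melatonin replicate 2 at 58.42 FPKM, with the other 3 melatonin libraries between 55.7 and 56.1. Ndufa4 was lowest in melatonin replicate 4 at 53.05 FPKM, with the other 3 between 57.6 and 58.2.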

How the results depend on the processing

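Over 21 alternatives, 0 members had an adjusted p under 0.05, the smallest being 0.0871, and at least 31 of the 37 had a negative log2 fold change. Quantile normalization gave a median log2 fold change of -0.076, 10 members lower at an unadjusted p under 0.05 and 7 with groups apart. Leaving out each library gave a median of -0.180 to -0.118, 14 to 22 lower members (6.52% to 11.1% of all tested genes), 11 to 16 with groups apart (6.9% to 10.2%), 34 to 37 negative (51.6% to 52.7%), and a ratio of summed FPKM of 0.892 to 0.917; the 14 were found without melatonin replicate 1. With the replicate number as a block, 17 members were lower (9.55% of all tested genes) and 0 passed adjustment, and the block with the GC content and length correction gave 12 (8.57%). Each library's deviations from its group mean were compared across genes. Those of same-numbered libraries correlated at -0.103 to 0.151 and 3 of 8 correlated best with their own number, so the numbers were not taken as pairs.

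Signs turned for 6 members. Leaving out each library in turn, log2 fold changes ran from -0.0955 to 0.299 for Ndufa12, -0.0899 to 0.00384 for Ndufa5, -0.0224 to 0.0141 for Ndufb5 and -0.113 to 0.00457 for Ndufs5. Ndufa12 was -0.0526 without control replicate 2 and -0.0955 without melatonin replicate 3. Ndufa5 was 0.0516 with quantile normalization and 0.00384 without melatonin replicate 1. Ndufa6 was 0.00179 with the GC content and length correction, with and without the block, and 0.0148 with quantile normalization. Ndufb3 was 0.0293 and Ndufs5 0.0473 with quantile normalization, and Ndufs5 was 0.00457 without control replicate 1. Ndufb5 was 0.0108 with the GC content and length correction, with and without the block, 0.00917 with array weights, 0.0151 with limma-voom, 0.00387 with median-ratio scaling and 0.012 with quantile normalization. Without control replicates 3 and 4 it was 0.0141 and 0.000683, and without melatonin replicates 1, 3 and 4 it was 0.00841, 0.00243 and 0.000638. The cause was not tested.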
